A study of Mus musculus with 6 samples.

Results

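The genes described here build and regulate cholesterol and fatty acids. They were taken by gene symbol from a fixed list of sterol pathway enzymes, regulators of the SREBP transcription factors, sterol carriers, efflux genes and lipogenic enzymes. The list holds 35 symbols, 1 of which (Sc4mol) is an older name for Msmo1, and all 34 genes were found among the 24318 genes of the table. Expression was measured by RNA-seq in CAD, a mouse neuronal cell line of catecholaminergic origin, in a series on circular RNAs and Alzheimer disease. The siCircGigyf2 group (3 libraries) received an siRNA against circGigyf2 (treatment label si circGIGYF2), a circular RNA of the Gigyf2 gene, and the siNC group (3 libraries) a control siRNA (si NC). All 6 libraries come from the same cell line, without any other treatment in the labels, and from total RNA depleted of ribosomal RNA. The labels name a single siRNA treatment against circGigyf2, and the level of the circle cannot be read from gene-level values. The gene-level value of Gigyf2 was 21.8, 21.1 and 21.3 FPKM with the circGigyf2 siRNA and 23.2, 23.1 and 23.2 FPKM with the control, a log2 fall of 0.11 (limma adjusted p = 0.0287), and does not separate linear from circular RNA. FPKM divide a gene's fragments by its length and by the size of the library, so levels can be set side by side between genes.

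Cells make cholesterol from acetyl-CoA by way of mevalonate, farnesyl diphosphate, squalene and lanosterol. The transcription factor SREBP2 (from Srebf2) drives most genes of this route, and SREBP1 (from Srebf1) leans towards fatty acid genes. Both are made as membrane proteins held in the endoplasmic reticulum by SCAP and the INSIG proteins while sterols are plentiful, and are cut free when sterols run low. LXR receptors sense oxysterols and raise efflux genes, and neurons make part of their own cholesterol besides the share that glia supply.

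Most genes of cholesterol synthesis were higher with the circGigyf2 siRNA, with ratios of mean FPKM between 1.154 and 1.463 for those that passed the test, while the fatty acid genes went in both directions. Of the 34 genes, 31 had a mean of at least 1 FPKM and were tested, and 19 rose and 4 fell at a limma adjusted p under 0.05. Over all 11420 genes tested, 19.5% rose and 18.7% fell, 38.2% in all. The 19 were Acat2, Pmvk, Mvd, Idi1, Fdps, Fdft1, Sqle, Lss, Cyp51, Msmo1, Nsdhl, Hsd17b7, Sc5d, Srebf2, Insig1, Insig2, Elovl6, Scd1 and Scd2. The 4 that fell were Srebf1, Stard4, Fasn and Nr1h2. In each of the 19 all siCircGigyf2 libraries lay above all siNC libraries (25.7% of all genes tested), and in each of the 4 all lay below (25.3%). The median log2 difference on log2(FPKM + 1), siCircGigyf2 minus siNC, was 0.24 over the 31 genes and 0.00035 over all genes tested. Among called genes the median absolute log2 difference was 0.34 for these genes and 0.25 over all genes. The genes were chosen with earlier results of these data known, so these counts describe the list and are not independent evidence of its direction.

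**Figure D1:**
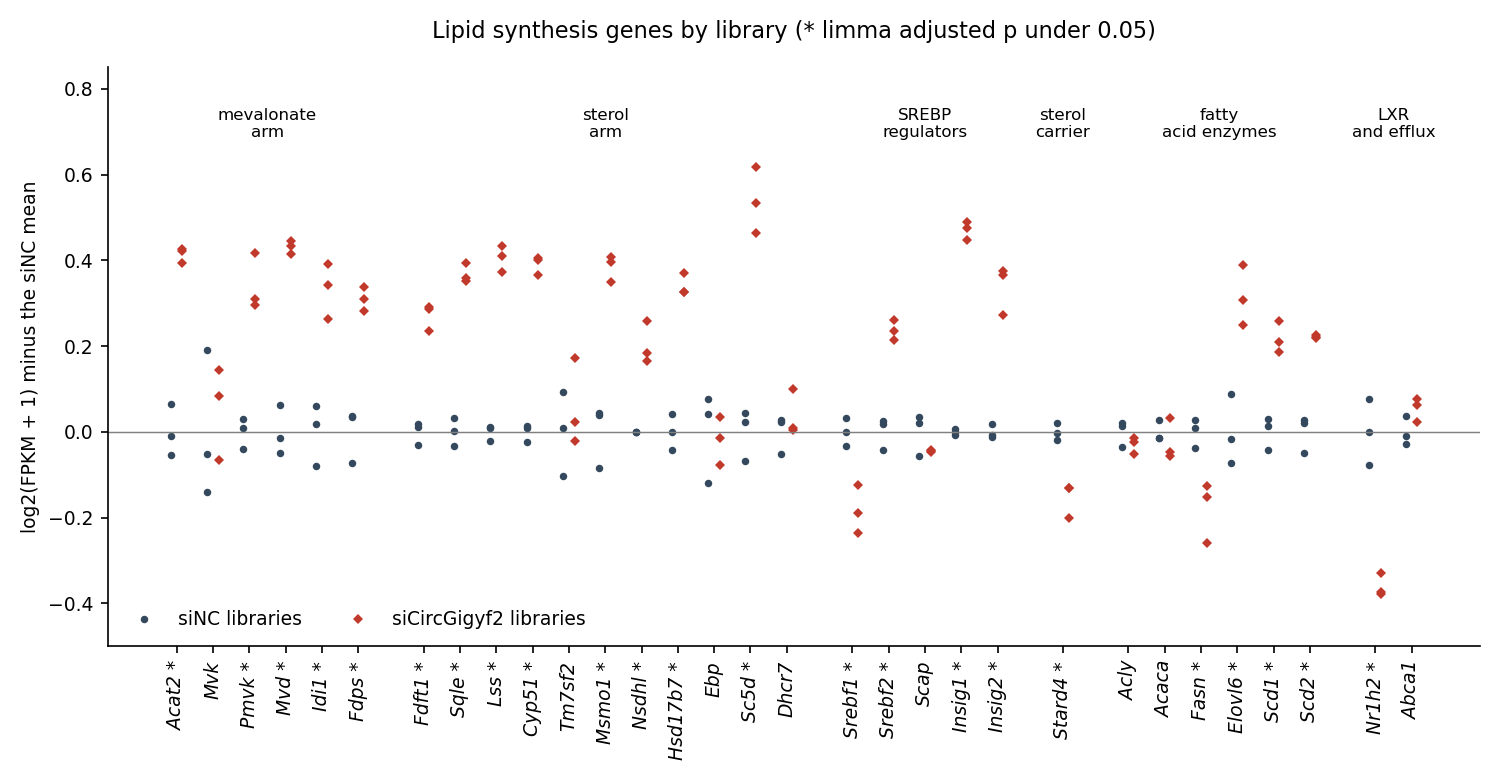
Each point is 1 library's log2(FPKM + 1) minus the mean of the 3 siNC libraries (y axis, log2 units) for the 31 tested genes, grouped by role on the x axis, with circles for siNC, diamonds for siCircGigyf2 and a star for a limma adjusted p under 0.05. The 3 diamonds stand above the 3 circles for 19 genes and below them for Srebf1, Stard4, Fasn and Nr1h2.

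The sum of FPKM over all genes was 604881 to 624645 with the circGigyf2 siRNA and 578627 to 601552 with the control. Relative depth, read from the step that a single fragment makes in low values, was 0.802 to 0.914 of siNC replicate 1 in the former and 0.953 to 1 in the latter. Depth was lower and the FPKM sum higher in all 3 siCircGigyf2 libraries, and their part in the results was not tested. The labels do not say whether the replicates came from separate cultures. The p-values therefore cover only the spread between these libraries, which may be technical. Of 15 markers of catecholaminergic neurons, 14 were tested, 3 rose and 5 fell, beside 19.5% and 18.7% of all genes tested. The rises were Tubb3 by 0.55, Slc18a1 by 0.33 and Hand2 by 0.18 in log2 units. The falls were Dbh by 0.37, Gata2 by 0.25, Phox2a by 0.20, Chgb by 0.14 and Chga by 0.12. Over the 6 libraries Phox2a was listed at 55.4 to 70.9 FPKM and Chgb at 965 to 1097 FPKM. Th, the rate-limiting enzyme of catecholamine synthesis, did not pass and was low at 2.82 to 4.85 FPKM. Summed over 6 astrocyte markers, FPKM lay between 0.358 and 0.523 with the circGigyf2 siRNA and between 0.205 and 0.502 with the control, and Aqp4, Aldh1l1 and Gja1 were listed at 0 throughout. The sums were 0.861 to 1.17 and 0.871 to 1.17 for 6 oligodendrocyte markers, 0.231 to 0.524 and 0.0609 to 0.208 for 6 microglia and macrophage markers, 5.95 to 7.19 and 5.995 to 6.93 for 5 endothelial markers, nearly all of it Pecam1, 3.70 to 4.13 and 3.40 to 4.10 for 5 fibroblast markers, and 0.0886 to 0.617 and 0.325 to 0.912 for 6 adipocyte and hepatocyte markers. Mag, Cldn11, P2ry12, Ptprc, Col1a2, Lum, Plin1 and Fabp4 were listed at 0 in every library. In such bulk samples fewer cells of a type and less RNA per cell cannot be told apart. The microglia sums were higher in every siCircGigyf2 library, with every marker of that list under 1 FPKM. Aif1 averaged 0.162 against 0.0234 FPKM, Csf1r 0.0536 against 0.0775 FPKM, and Tyrobp was above 0 only in siCircGigyf2 replicate 1. The fibroblast collagen gene Col1a1 rose, from 0.791 to 1.01 FPKM to 1.28 to 1.67 FPKM (limma adjusted p = 0.0180). On the same list Pdgfra, which did not pass, averaged 1.83 against 2.03 FPKM, and Dcn, not tested, 0.633 against 0.857 FPKM. The part of these markers in the results was not tested.

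Promoter sequences are shown for members that moved and for Hmgcs1, to let the shared elements be seen. They are the 250 bases before the annotated start, from RefSeq on build GRCm38.p6, which is not the mm9 build of the table, and 27 of the 34 genes matched an entry by symbol. The motifs searched on both strands were the sterol regulatory element TCACNCCAC and the CCAAT box bound by NF-Y, a partner of SREBP. Insig1 and Cyp51 had the smallest p values of genes with an entry and Lss the next, Fasn is a gene that fell, and Hmgcs1 had the only match to the sterol element. The windows are chr5:28071162-28071411 on the plus strand for Insig1, chr5:4104698-4104947 on the minus strand for Cyp51, chr10:76531355-76531604 on the plus strand for Lss, chr13:119690101-119690350 on the plus strand for Hmgcs1 and chr11:120824548-120824797 on the minus strand for Fasn. Capitals mark CCAAT or its reverse complement ATTGG and, in Hmgcs1, the sterol element TCACCCCAC.
Insig1: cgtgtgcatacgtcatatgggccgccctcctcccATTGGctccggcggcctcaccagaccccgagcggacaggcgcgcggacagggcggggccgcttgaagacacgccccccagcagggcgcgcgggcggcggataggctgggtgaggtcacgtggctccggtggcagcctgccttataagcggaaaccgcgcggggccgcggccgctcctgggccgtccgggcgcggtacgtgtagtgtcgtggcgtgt
Cyp51: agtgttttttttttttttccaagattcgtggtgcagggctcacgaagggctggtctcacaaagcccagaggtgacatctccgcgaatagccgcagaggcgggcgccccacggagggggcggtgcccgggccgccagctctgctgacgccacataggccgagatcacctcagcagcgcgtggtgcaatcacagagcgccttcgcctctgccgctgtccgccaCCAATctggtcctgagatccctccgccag
Lss: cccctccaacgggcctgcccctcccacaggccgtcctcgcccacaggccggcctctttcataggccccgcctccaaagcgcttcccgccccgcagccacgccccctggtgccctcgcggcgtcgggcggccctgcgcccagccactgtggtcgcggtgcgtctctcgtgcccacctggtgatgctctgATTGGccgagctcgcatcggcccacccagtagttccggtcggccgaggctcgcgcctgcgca
Hmgcs1: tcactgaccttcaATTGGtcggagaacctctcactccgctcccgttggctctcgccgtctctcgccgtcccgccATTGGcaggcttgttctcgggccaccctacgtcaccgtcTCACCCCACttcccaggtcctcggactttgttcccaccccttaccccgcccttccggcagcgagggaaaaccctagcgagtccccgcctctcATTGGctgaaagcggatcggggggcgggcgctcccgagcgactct
Fasn: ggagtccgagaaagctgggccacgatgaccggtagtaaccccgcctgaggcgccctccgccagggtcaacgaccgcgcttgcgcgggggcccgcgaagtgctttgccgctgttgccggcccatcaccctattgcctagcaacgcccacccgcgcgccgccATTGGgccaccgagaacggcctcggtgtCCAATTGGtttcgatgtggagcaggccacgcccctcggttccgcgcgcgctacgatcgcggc
The CCAAT box begins 216 bases before the start in Insig1, 29 in Cyp51 and 62 in Lss. Hmgcs1 holds 3 and Fasn 3, of which a pair overlap each other on opposite strands.

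Over the members, the CCAAT box was frequent and the strict sterol element was not. The CCAAT box was found in 19 of 27 members (70.4%). The share was 40.9% of the tested genes with an entry and 37.5% of all genes in the table of promoters. By call, the box was found in 12 of the 14 that rose with an entry and in Fasn and Srebf1 of the 3 that fell. Of the 10 members that did not pass or were not tested, 5 held it, among them Mvk, Tm7sf2, Ebp and Dhcr7. The exact element TCACNCCAC was found in 1 of 27 members, Hmgcs1, and in 1.16% of tested genes. Among members with an entry, 0 of the 14 that rose and 0 of the 3 that fell held it. With at most 1 mismatch the element was found in 12 of 27 (44.4%), against 25.4% of tested genes. Those that rose were Insig1, Insig2, Srebf2, Cyp51, Msmo1, Nsdhl, Hsd17b7 and Acat2, and 0 of the 3 that fell held it. Of the 10 members that did not pass or were not tested, 4 held it, namely Dhcr7, Acly, Hmgcs1 and Nr1h3. The GC box GGGCGG was found in 21 of 27 members (77.8%) and 66.1% of tested genes, and the E-box CACGTG in 6 of 27 (22.2%) and 9.998% of tested genes. All of these but the exact sterol element were chosen after the values were seen. A match is a string of letters and not a site, and the counts are a description without a test.

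The regulators of SREBP moved unequally. Insig1, which holds the SCAP-SREBP complex in the endoplasmic reticulum and is itself an SREBP target, was listed at 250.9, 243.7 and 248.4 FPKM with the circGigyf2 siRNA and at 179.2, 177.6 and 178.5 FPKM with the control. The lowest siCircGigyf2 library lay well above the highest siNC library, and the siNC libraries spanned only 0.890% of their mean. Its ratio of means was 1.39 and on the log2 scale it rose by 0.47 (limma, SE 0.027, adjusted p = 1.35e-05). Insig2, a paralog with the same anchoring role, was listed at 31.6, 31.4 and 29.3 FPKM against 24.0, 23.9 and 24.4 FPKM, and rose by 0.34 (SE 0.038, adjusted p = 0.000221). Scap, the sterol-sensing escort of SREBP, was listed at 12.4, 12.4 and 12.3 FPKM against 13.1, 12.3 and 13.0 FPKM. The groups overlapped and the log2 difference of Scap was -0.04 (95% interval -0.14 to 0.050, adjusted p = 0.433).

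The genes of the transcription factors themselves went opposite ways. Srebf2 was listed at 95.8, 99.0 and 97.3 FPKM against 83.9, 80.0 and 83.5 FPKM and rose by 0.24 in log2 units (limma, SE 0.031, adjusted p = 0.000455). Srebf1 was listed at 50.2, 54.3 and 51.8 FPKM against 60.7, 57.9 and 59.2 FPKM and fell by 0.18 (SE 0.037, adjusted p = 0.00447). Neither gene's groups overlapped. Within a library, where scaling cancels, the ratio of Srebf2 to Srebf1 was 1.91, 1.82 and 1.88 with the circGigyf2 siRNA and 1.38, 1.38 and 1.41 with the control, which follows from the opposite changes of the 2 genes and is given as a description. The ratio of Insig1 to Scap was 20.3, 19.7 and 20.1 against 13.7, 14.5 and 13.7. That is the relative amount of anchor to escort transcript, and its groups did not overlap either, which follows from the rise of Insig1.

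**Figure D2:**
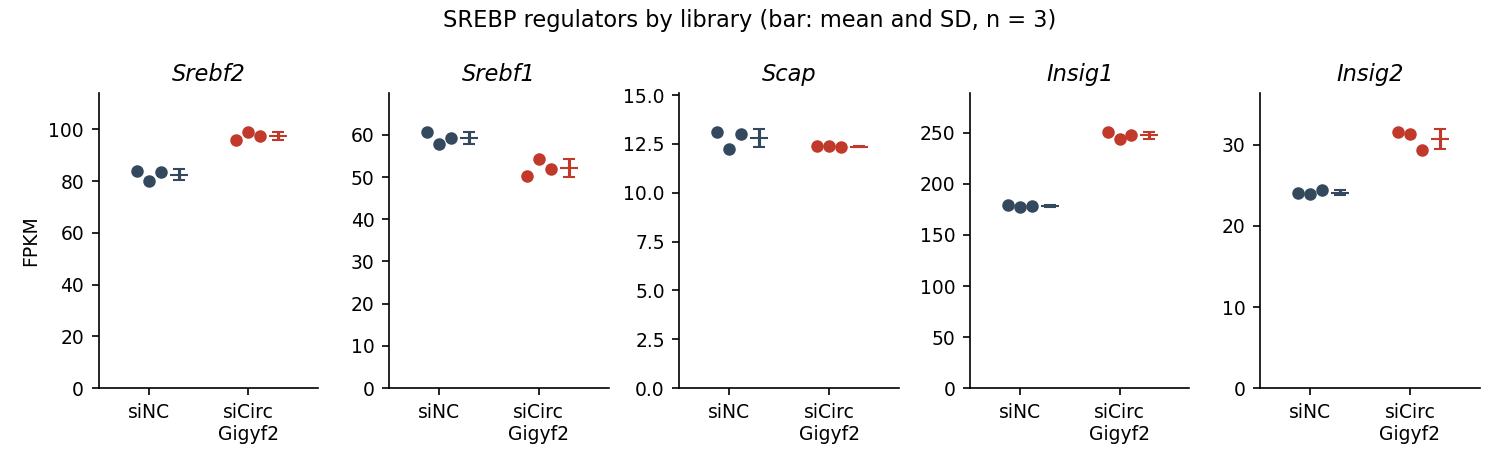
FPKM (y axis, linear from 0, own scale in each panel) of Srebf2, Srebf1, Scap, Insig1 and Insig2 in the 3 siNC and 3 siCircGigyf2 libraries, with the mean and SD (n = 3) beside the points. Srebf2, Insig1 and Insig2 were higher in all siCircGigyf2 libraries, Srebf1 was lower in all, and Scap overlapped.

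In the mevalonate arm, from acetyl-CoA to farnesyl diphosphate, 5 of 6 tested enzymes rose and 0 fell, beside 19.5% and 18.7% of all genes tested. The arm's median log2 difference was 0.34. Acat2, the cytosolic thiolase of the first condensation, was listed at 118.6, 121.1 and 121.3 FPKM against 89.5, 94.2 and 86.7 FPKM, 0.41 log2 units higher (limma, SE 0.035, adjusted p = 5.75e-05). Mvd, the decarboxylase that makes isopentenyl diphosphate, was listed at 71.5, 72.5 and 73.1 FPKM against 52.9, 51.5 and 55.8 FPKM, a rise of 0.43 (SE 0.035, adjusted p = 5.04e-05). Pmvk, phosphomevalonate kinase, was listed at 141.0, 142.4 and 153.4 FPKM against 115.4, 111.5 and 117.1 FPKM, a rise of 0.34 (SE 0.038, adjusted p = 0.000222). All 3 enzymes were above every control library in every siCircGigyf2 library. Idi1, isopentenyl diphosphate isomerase, averaged 93.5 ± 4.21 against 74.1 ± 3.69 FPKM (SD, n = 3) and rose by 0.33. Fdps, farnesyl diphosphate synthase, averaged 304.3 ± 5.98 against 245.5 ± 10.6 FPKM and rose by 0.31.

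Mvk, mevalonate kinase, did not share this rise. It was listed at 5.19, 5.86 and 6.16 FPKM against 4.88, 6.39 and 5.25 FPKM, the lowest level among the tested enzymes of the route. Its groups overlapped and its log2 difference was 0.05 (95% interval -0.15 to 0.26, limma adjusted p = 0.674), so a rise of more than about 0.26 lies outside the interval. Hmgcs1, the HMG-CoA synthase of the same arm, was listed at 0 in all 6 libraries. A 0 in this table can be a failed estimate, so no level or change is read from it. Summed over the arm, FPKM were 729, 735 and 762 against 589, 567 and 594, a ratio of means of 1.27.

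The sterol arm, from squalene to cholesterol, gave the largest rise of all 31 genes. In that arm 8 of 11 enzymes rose and 0 fell, beside 19.5% and 18.7% of all genes tested. The arm's median log2 difference was 0.34. Cyp51, the lanosterol demethylase, was listed at 263.3, 256.9 and 263.8 FPKM against 200.4, 195.7 and 200.9 FPKM, 0.39 log2 units higher (limma, SE 0.028, adjusted p = 2.95e-05). Lss, which closes the rings to make lanosterol, was listed at 124.6, 128.1 and 130.1 FPKM against 96.9, 94.6 and 96.7 FPKM, a rise of 0.41 (SE 0.029, adjusted p = 2.95e-05). Sqle, squalene epoxidase, was listed at 226.5, 221.2 and 220.1 FPKM against 172.3, 168.2 and 176.0 FPKM, a rise of 0.37 (SE 0.029, adjusted p = 4.70e-05). For these 3 enzymes no siCircGigyf2 library came near the control range. Sc5d, the sterol desaturase near the end of the route, averaged 68.0 ± 3.70 against 46.5 ± 1.95 FPKM (SD, n = 3), 1.46 times the control mean and 0.54 log2 units higher (SE 0.046, adjusted p = 6.23e-05), the largest among the 31 genes.

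The remaining enzymes of the arm split by size of change. Msmo1, the methylsterol oxidase and the most abundant enzyme of the route, averaged 358.7 ± 7.78 against 274.8 ± 13.7 FPKM (SD, n = 3) and rose by 0.38. Its partners in removing the methyl groups at carbon 4, Nsdhl and Hsd17b7, averaged 53.2 ± 1.87 against 46.1 ± 0.0299 FPKM and 22.2 ± 0.407 against 17.3 ± 0.537 FPKM, and rose by 0.20 and 0.34. Fdft1, squalene synthase, averaged 104.7 ± 2.23 against 86.5 ± 1.62 FPKM and rose by 0.27. These 4 rises had limma adjusted p between 0.000153 and 0.00156.

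Dhcr7, Ebp and Tm7sf2 did not pass. Dhcr7, the last reductase of one branch of the route, averaged 101.6 ± 3.93 against 98.9 ± 3.09 FPKM (SD, n = 3), a log2 difference of 0.04 (95% interval -0.047 to 0.12, limma adjusted p = 0.455). Ebp, the sterol isomerase, averaged 18.1 ± 0.739 against 18.4 ± 1.38 FPKM, a difference of -0.02 (95% interval -0.15 to 0.11). Tm7sf2, a sterol reductase whose reaction the lamin B receptor can also carry out, averaged 12.7 ± 0.973 against 12.1 ± 0.892 FPKM, a difference of 0.06 (95% interval -0.093 to 0.21). Their groups overlapped. The upper end of the interval of Tm7sf2 lies above the estimate for Nsdhl, the smallest rise of the arm, and those of Dhcr7 and Ebp lie below it. Within a library the ratio of Sqle to Dhcr7 was 2.28, 2.23 and 2.07 against 1.71, 1.76 and 1.74, without overlap. The separation of this ratio follows from the rise of Sqle and is given as a description. The arm's summed FPKM were 1358, 1326 and 1368 against 1083, 1033 and 1088, a ratio of means of 1.26.

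**Figure D3:**
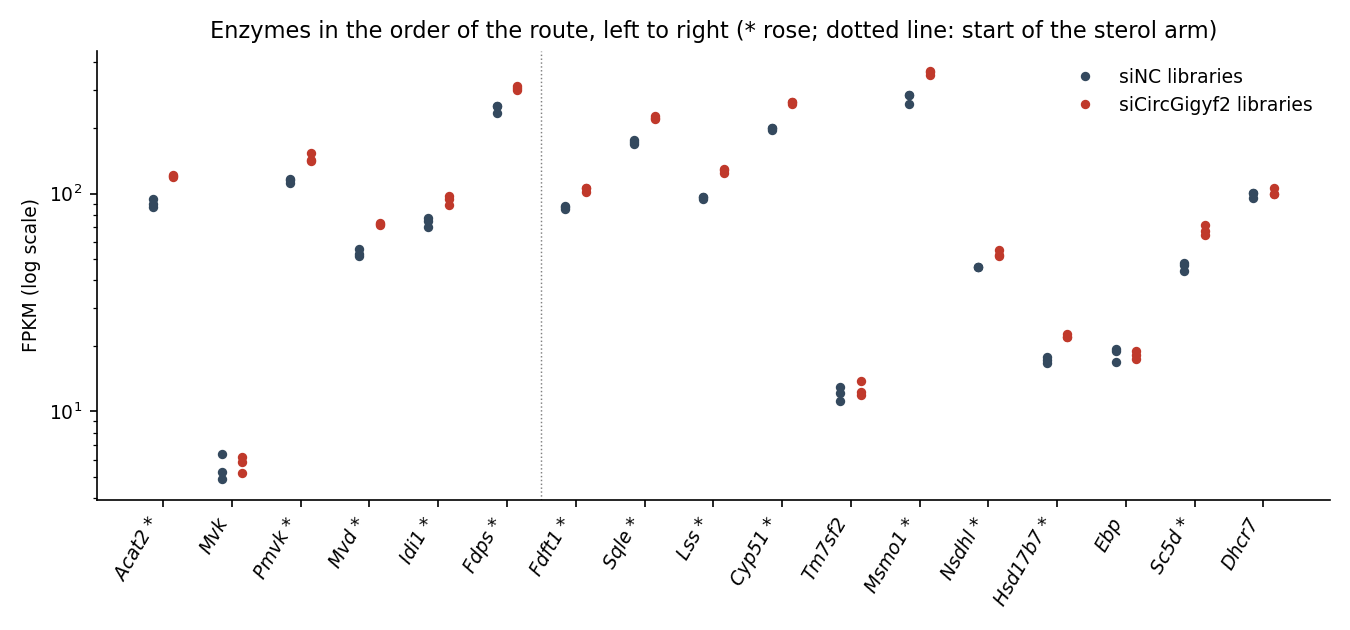
FPKM on a log axis (y) for 17 enzymes in the order of the route (x), 3 siNC and 3 siCircGigyf2 libraries each, with a star for those that rose and a dotted line between the mevalonate and sterol arms. With the circGigyf2 siRNA mean levels run from 5.74 FPKM for Mvk to 358.7 FPKM for Msmo1, and Mvk, Tm7sf2, Ebp and Dhcr7 overlap between the groups. Hmgcs1 is listed at 0 and not drawn.

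Stard4, which carries cholesterol between membranes inside the cell and is a sterol-regulated gene, ran opposite to the enzymes. It was listed at 74.9, 71.3 and 74.9 FPKM with the circGigyf2 siRNA and at 81.9, 81.0 and 83.3 FPKM with the control. Every siCircGigyf2 library was below every siNC library, and the log2 difference was -0.15 (SE 0.031, limma adjusted p = 0.00477).

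Among the enzymes of fatty acid synthesis 3 of 6 rose and 1 fell, beside 19.5% and 18.7% of all genes tested. The median log2 difference of these enzymes was 0.098. Scd1, a stearoyl-CoA desaturase, was listed at 302.3, 297.4 and 312.6 FPKM against 263.5, 253.4 and 266.5 FPKM, 0.22 log2 units higher (limma, SE 0.033, adjusted p = 0.000957). Scd2, the desaturase paralog known from brain, was listed at 1015, 1021 and 1016 FPKM against 885, 843 and 890 FPKM, and also rose by 0.22 (SE 0.034, adjusted p = 0.00111). Both desaturases kept apart from the controls. After quantile normalization the rise of Scd2 was 0.097 (adjusted p = 0.0101). Within a library the ratio of Scd2 to Scd1 was 3.36, 3.43 and 3.25 against 3.36, 3.33 and 3.34, and the groups overlapped. Elovl6, which lengthens C16 fatty acids, was listed at 16.5, 15.8 and 17.5 FPKM against 14.01, 12.4 and 13.0 FPKM and rose by 0.32 (SE 0.055, adjusted p = 0.00214).

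The enzymes upstream of elongation and desaturation showed no such rise. Fasn, the fatty acid synthase, was listed at 116.4, 125.4 and 127.6 FPKM against 142.2, 135.9 and 140.3 FPKM and fell by 0.18 (SE 0.039, limma adjusted p = 0.00663), without overlap. Acaca, the acetyl-CoA carboxylase that commits carbon to fatty acids, averaged 19.9 ± 0.704 against 20.2 ± 0.364 FPKM (SD, n = 3), a log2 difference of -0.02 (95% interval -0.11 to 0.065). Acly, the ATP citrate lyase that supplies cytosolic acetyl-CoA, averaged 893 ± 12.5 against 912 ± 18.8 FPKM, a difference of -0.03 (95% interval -0.10 to 0.045, adjusted p = 0.509). After quantile normalization Acly did pass, at a log2 difference of -0.19 (adjusted p = 0.000325), so the call for this gene depends on the scaling. The ratio of Scd1 to Fasn within a library was 2.60, 2.37 and 2.45 against 1.85, 1.87 and 1.90, which follows from the rise of the one and the fall of the other.

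Of the LXR receptors and efflux genes, Nr1h2 fell and Abca1 did not pass. Nr1h2, which encodes LXR beta, was listed at 13.3, 13.7 and 13.2 FPKM against 16.5, 17.5 and 18.5 FPKM. Every siCircGigyf2 library was lower, and the log2 fall of 0.36 (SE 0.047, limma adjusted p = 0.000494) was the largest fall among the 31 genes. Abca1, the cholesterol exporter that LXR raises, was listed at 8.76, 8.67 and 8.41 FPKM against 8.50, 8.08 and 8.20 FPKM, overlapping groups with a difference of 0.05 (95% interval -0.049 to 0.16). Nr1h3, LXR alpha, was listed between 0.0338 and 0.267 FPKM over the 6 libraries and was too low to test. Abcg1, a second exporter, was listed at 0, 0.0081 and 0 FPKM against 0, 0 and 0.0156 FPKM.

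Other genes of lipid metabolism were taken from a separate list of 97 symbols in 6 groups, 3 of which were older names that were not found. Of 82 genes tested, 19 rose and 11 fell, 30 in all, against 38.2% of all genes tested, and their median log2 difference was 0.042. The machinery that processes SREBP, with its proteases, adaptors and ubiquitin ligases, was the list with the lowest share of changed genes, at 1 rise and 2 falls among 15. The rise was Sec24a, a cargo adaptor of the vesicles that carry SCAP and SREBP to the Golgi, at 40.6 ± 0.954 against 29.3 ± 0.342 FPKM (SD, n = 3), a rise of 0.46 (limma adjusted p = 2.95e-05). Its paralog Sec24d fell by 0.26, and Rnf139, a ubiquitin ligase of the endoplasmic reticulum, fell by 0.33. Mbtps1 and Mbtps2, the proteases that cut SREBP, did not pass, at log2 differences of -0.05 and -0.03.

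In the isoprenoid branches, which draw farnesyl and geranylgeranyl groups off the route, 4 genes rose and 2 fell of 13. The shares over all genes tested were 19.5% and 18.7%. Nus1, a subunit of the dolichol-making transferase, rose by 0.22, while its catalytic partner Dhdds fell by 0.15. Of the genes of the coenzyme Q branch, Pdss2 rose by 0.27 and Coq2, low at 2.21 ± 0.139 against 3.66 ± 0.575 FPKM (SD, n = 3), fell by 0.53. Among 17 further fatty acid genes 4 rose and 2 fell, beside the same shares over all genes. Slc25a1, the citrate carrier that exports carbon from mitochondria, averaged 275.5 ± 1.42 against 224.7 ± 3.78 FPKM and rose by 0.29. Aacs, acetoacetyl-CoA synthetase, rose by 0.28. Me1, a source of NADPH for fatty acid synthesis, averaged 55.5 ± 0.365 against 70.2 ± 1.05 FPKM and fell by 0.33, and Hacd3, a dehydratase of elongation, fell by 0.25. The limma adjusted p of these genes lay between 5.53e-05 and 0.00666.

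Acyl-CoA and glycerolipid synthesis held 7 rises and 1 fall among 16 genes, beside 19.5% and 18.7% of all genes tested. Acsl4, an acyl-CoA synthetase for long polyunsaturated chains, averaged 71.6 ± 2.07 against 59.4 ± 1.36 FPKM (SD, n = 3) and rose by 0.26 (limma adjusted p = 0.000389). The acyltransferase genes Agpat5 and Agpat6 rose by 0.18 and 0.16, and Mogat2 fell by 0.51. Among 14 genes of sterol storage, transport and oxysterols 3 rose and 1 fell, beside the same shares over all genes. The rises were Gramd1a, a sterol transfer protein, and the oxysterol-binding genes Osbp and Osbpl9, by 0.26, 0.20 and 0.21. Cyp46a1, the neuronal cholesterol hydroxylase, was low at 1.41 ± 0.256 against 2.21 ± 0.314 FPKM and fell by 0.42 (adjusted p = 0.0145), a call lost without siNC replicate 3 (adjusted p = 0.0544).

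Among the LXR partners and targets 0 genes rose, 3 fell and 4 did not pass of 7 tested, beside 38.2% called over all genes tested. Mylip, an LXR target that sends lipoprotein receptors for degradation, was listed at 6.44, 6.10 and 7.43 FPKM against 11.1, 10.2 and 11.8 FPKM. It fell by 0.66 (SE 0.075, limma adjusted p = 0.000237). Lpcat3, an LXR target that remodels phospholipids, averaged 30.6 ± 1.44 against 38.9 ± 1.47 FPKM (SD, n = 3) and fell by 0.33 (adjusted p = 0.000480). Other LXR targets of the list, Abcg4, Smpdl3a and Arl4c, were under 1 FPKM and not tested.

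**Figure D4:**
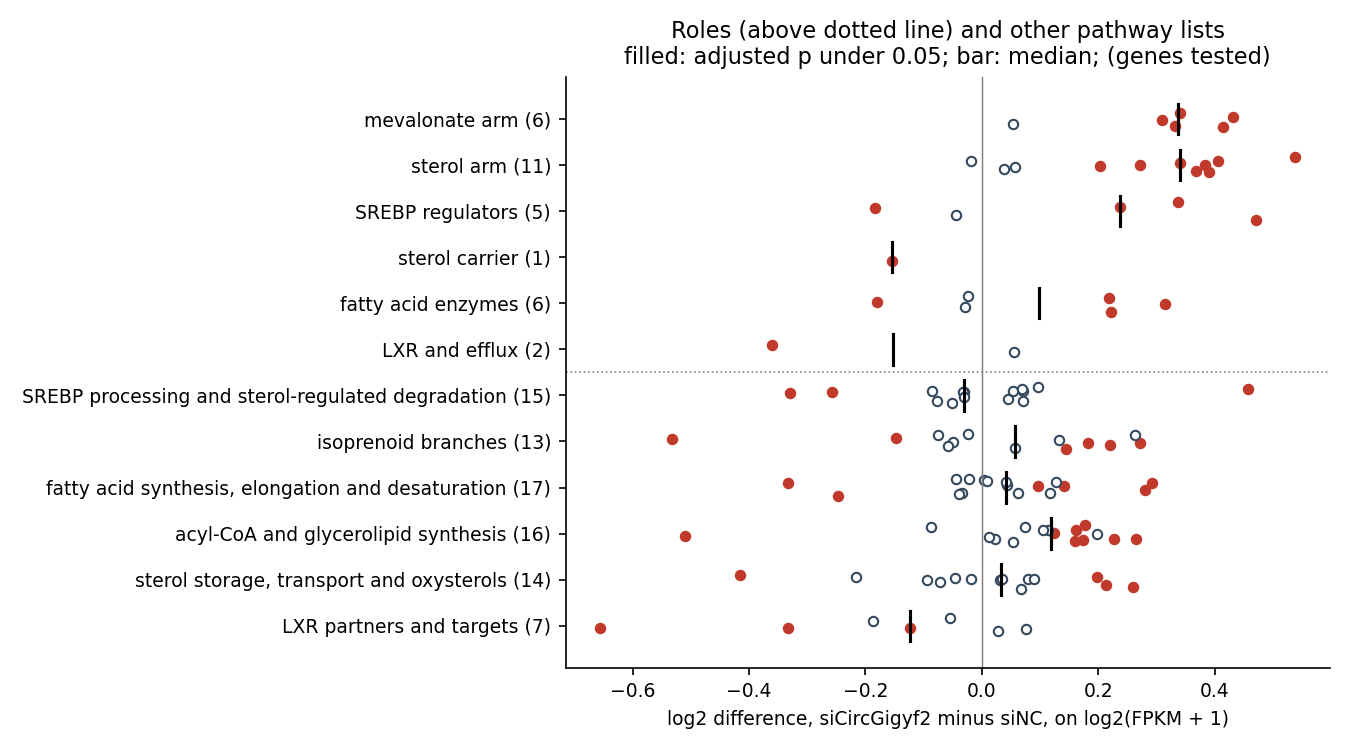
Each point is 1 gene's log2 difference, siCircGigyf2 minus siNC, on log2(FPKM + 1) (x axis) for the 6 roles above the dotted line and the 6 other lists below it (y axis, genes tested in parentheses), filled where limma adjusted p is under 0.05, with a bar at the median. The medians of the mevalonate and sterol arms are both 0.34 and those of the other lists lie between -0.12 and 0.12.

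Some members share exonic bases with other genes in GENCODE M21, and whether reads were assigned by strand was not given. Fdft1 shares 20.9% of its exonic bases with Ctsb on the opposite strand, and Ctsb was also higher, at 75.4 ± 1.94 against 65.2 ± 2.47 FPKM (SD, n = 3). Scap shares 18.6%, Hmgcs1 16%, Idi1 10.7% and Lss 8.16% with antisense or unclassified gene models on the opposite strand. Cyp51 shares 4.22% with Akap9, which averaged 20.1 ± 0.343 against 21.3 ± 0.101 FPKM, and Srebf1 shares 2.54% with Rai1, which averaged 16.9 ± 0.173 against 18.5 ± 0.259 FPKM. Fdps shares 77.4% with Gm43738, a gene model on the same strand. A search for pseudogenes named after a member found only the processed pseudogene Nr1h2-ps, and pseudogenes under other names were not searched for. Reads of these pairs cannot be told apart here, and their part in the values was not tested.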

How the data were processed

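RNA-seq was done on 3 siCircGigyf2 and 3 siNC samples of CAD cells; groups came from the treatment labels and columns were matched by title. The authors deposited FPKM per gene symbol, on build mm9 per the submitters' processing notes. For the aligner, quantifier, annotation, strand handling and absolute depth the entry is: not given in the sources used here. Genes with a mean of at least 1 FPKM entered a two-sided limma fit (version 3.58.1, R 4.3.3) of log2(FPKM + 1) on group, with moderated variances that follow mean expression, and with Benjamini-Hochberg adjustment over all 11420 genes and a threshold of 0.05. The fold scale understates changes of low genes, and FPKM cannot show a change in total RNA. The 95% intervals come from the same fit. The fit was tested on simulated data.

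Members and lists were chosen with earlier results of these data known. Every member is named. All 6 values are given for SREBP regulators, the 3 members of smallest p in each other role, called members against the direction of their role's other calls and members listed at 0 in a library, and Mvk was added after its values were seen; up to 4 called genes of smallest p are named in each other list, and genes named beyond that (Mbtps1, Mbtps2, Abcg4, Smpdl3a, Arl4c, Ctsb, Akap9, Rai1 and single markers) were picked after their values were seen. A called gene of the LXR list is not reported here. The promoter rule asked for called members with the exact sterol element and, for contrast, called members without it. As 0 of the 14 that rose and 0 of the 3 that fell held the element, it gave only the contrast genes Insig1 and Cyp51. Lss, Hmgcs1 and Fasn were added after their values were seen. Alternatives were a pseudocount of 0.1, no filter, a minimum mean of 5 FPKM, quantile normalization, scaling by median ratios, no variance trend, the replicate number as a block, and leaving out each library. Versions were Python 3.11.15, pandas 2.3.3, numpy 2.4.6 and scipy 1.17.1.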

Additional observations from a re-analysis of the deposited data

How the results depend on the processing

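Under all 13 alternatives the same 19 members rose and the same 4 fell, and quantile normalization added Acly to the falls, giving 5. Of the refits of single members, 398 kept direction and side of the threshold. The exceptions besides Acly were sign changes of members that never passed: Mvk at -0.015 without siNC replicate 1, and Ebp between -0.079 and 0.019 over the fits that leave out a library, above 0 without siCircGigyf2 replicate 3, siNC replicate 1 or siNC replicate 3. With a library left out, Mvk ranged from -0.015 to 0.15. Counts for the other pathway lists went from 13 to 21 rises and from 8 to 15 falls. Same-numbered libraries did not all deviate together, with correlations across genes of 0.16 for number 1, the highest of any pair, and -0.021 and 0.0025. Not every library correlated best with its own number, and siCircGigyf2 replicate 2 with siNC replicate 3 reached 0.13. The numbers were not taken as pairs. With the replicate number as a replicate block, 19 members rose and 4 fell, and 17 and 11 genes of the other lists did, with 3973 calls over all genes in place of 4367. Absolute depth is unknown, so what it limits in genes under 1 FPKM, such as Nr1h3 and Abcg1, could not be given.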
